A study of Mus musculus with 10 samples.

Results

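The genes described here are the zinc finger protein genes with a numbered Zfp symbol that were transcribed in mouse embryonic stem cells. They were selected on measured values: every gene whose symbol is Zfp followed by digits, Zfp42 left out, with a mean of at least 1 RPKM over the 8 columns of the deposited table. This rule took 164 rows of 24901 in all and of 339 numbered zinc finger rows. Zfp664 stands on a pair of rows with identical values and was counted once, which leaves 163 genes. Their level is therefore no finding, and levels are given below as a description.

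The study labelled newly made RNA for 10 min with 2 mM bromouridine (Bru-seq), captured it with an antibody against the label, removed ribosomal RNA and sequenced it. The values are intronic RPKM, the reads within a gene's introns per kilobase of intron and scaled to the size of the library, and so read RNA still being made. There are 10 samples, which make 5 groups of 2. EloA_WT has unedited Elongin A, which belongs to an elongation factor of RNA polymerase II. EloA_K754M and EloA_K754R are edited at the lysine of Elongin A that their names give, to methionine and to arginine. CJ7_WT is a wild-type embryonic stem cell line, and Eed_null is named for the loss of Eed, a core subunit of the histone methyltransferase Polycomb repressive complex 2. The growth protocol gives medium with LIF, 1 µM PD0325901 and 3 µM CHIR99021 for all groups, on fibroblast feeders that were then depleted, while the extract protocol names feeder-free dishes. The labels give the line background CCE28 to EloA_WT and Eed_null and CJ7 to the other groups, while the growth protocol names CJ7 for all of them, and the Eed_null samples carry the genotype entry EloA null. Groups follow the sample titles here, and if the line entries hold, the K754 edits and the line cannot be told apart in a comparison with EloA_WT. By the same entries, the loss of Eed and the line cannot be told apart between Eed_null and CJ7_WT. The sources used here do not say how many clones each edited line stands for.

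Most numbered Zfp genes encode proteins with repeated C2H2 zinc fingers, short loops held by zinc that each read a few bases of DNA. Many also carry a KRAB domain, which binds Trim28; Trim28 brings the histone methyltransferase Setdb1 and heterochromatin proteins, and in embryonic stem cells this pathway is known for silencing retrotransposons and for keeping methylation at imprinted regions. KRAB zinc finger genes arose by repeated duplication and lie in clusters.

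Embryonic stem cell markers were present in every column: 11 of the 12 markers listed were in the table, none of them at 0, and their summed level ran from 113 to 132 RPKM. Fibroblast markers (16 of 16 in the table) summed to 5.67 to 7.58 RPKM in EloA_WT, 7.47 to 11.3 in EloA_K754M, 7.62 to 11.4 in EloA_K754R, 11.05 in CJ7_WT and 12.4 in Eed_null, and their part in the results below was not tested. The depth, as intronic reads recovered from the values, ran from 27099791 to 39952140 in the 6 Elongin A libraries, 89125677 in the pooled CJ7_WT column and 73968621 in the pooled Eed_null column. Tceb3, which encodes Elongin A, was 1.83 and 2.03 RPKM in EloA_WT, 1.46 and 1.98 RPKM in EloA_K754M and 1.12 and 1.30 RPKM in EloA_K754R. It thus lay lower in EloA_K754R than in both other groups without overlap. Pooled CJ7_WT, at 1.51 RPKM, also lay below both EloA_WT libraries. These values do not test a change of 1 residue, and the part of the lower Tceb3 level of EloA_K754R in the results below was not tested. The genes described had a median of 663 intronic reads in a library, 138 of the 163 had at least 100 reads in each of the 6 libraries, and 8 had under 20 in some library. Some of the genes are close copies of each other, and how reads that fit several copies were assigned is not given in the sources used here, so differences among near-identical members are uncertain.

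Promoter sequence was found in the RefSeq promoter table (build GRCm38.p6, 300 bases per start, 250 before and 50 after it) for 133 of the 163 genes. Of these genes, 35 (26.3%) held CCGGAAG, the core bound by ETS factors, on either strand, against 9.93% of all 27025 genes in the table. The GC box core GGGCGG was found in 71 (53.4%) against 38.2% of all genes. The rarer motifs were CATGCGC, part of the NRF1 site, in 11 genes (8.27% against 4.41%), AAGATGGCG, bound by YY1, in 7 (5.26% against 1.64%), and TGACGTCA, bound by CREB, in 5 (3.76% against 2.03%). Among 145 numbered zinc finger genes under the level rule the shares were 20% with CCGGAAG, 42.8% with GGGCGG and 2.07% with AAGATGGCG, between those of the members and of all genes. CATGCGC (9.66%) and TGACGTCA (4.83%) were more frequent in these genes than in the members. The number of CpG dinucleotides was taken at the start of each gene that held the most. Its median was 16 in the members, 14 in the 145 numbered zinc finger genes under the level rule and 8 over all genes. A motif was counted where any start of a gene held it. The shares of all genes cover genes of any level, and shares for other genes of 1 RPKM or more are not given here. A match is a description of the letters and no evidence of binding.

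The 5 stretches below belong to members described later. Zfp428 was lower in the mean of both mutants, and the values of Zfp961 and Zfp867 were low in EloA_K754R but did not pass the test. Zfp936 was among the highest levels, and Zfp296 had the largest ratio in Eed_null. The stretches lie before the start, outside annotated exons, and are written 5′ to 3′ on the gene's strand, with any of the 5 motifs in capitals. They lie on GRCm38.p6 at chr7:24506837-24507005 (plus strand), chr8:71950816-71951037 (plus strand), chr11:59472475-59472724 (minus strand), chr7:43177340-43177587 (plus strand) and chr7:19577037-19577286 (plus strand), in that order for Zfp428, Zfp961, Zfp867, Zfp936 and Zfp296. Zfp428 holds CATGCGC, Zfp867 GGGCGG, Zfp936 CCGGAAG on the other strand and Zfp296 GGGCGG at 3 places, while Zfp961 holds none of the 5 motifs in this stretch.
Zfp428: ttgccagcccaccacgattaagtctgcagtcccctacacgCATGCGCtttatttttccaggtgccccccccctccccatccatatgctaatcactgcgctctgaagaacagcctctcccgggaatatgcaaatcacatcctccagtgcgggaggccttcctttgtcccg
Zfp961: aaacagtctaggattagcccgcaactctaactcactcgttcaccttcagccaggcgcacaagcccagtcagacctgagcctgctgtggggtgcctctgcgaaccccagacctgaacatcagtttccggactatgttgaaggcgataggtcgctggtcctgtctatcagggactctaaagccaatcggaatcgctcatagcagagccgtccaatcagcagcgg
Zfp867: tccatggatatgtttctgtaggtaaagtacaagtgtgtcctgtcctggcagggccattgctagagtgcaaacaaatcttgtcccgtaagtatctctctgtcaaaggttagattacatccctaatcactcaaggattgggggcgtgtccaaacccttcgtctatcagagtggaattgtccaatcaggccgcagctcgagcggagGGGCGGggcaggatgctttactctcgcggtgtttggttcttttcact
Zfp936: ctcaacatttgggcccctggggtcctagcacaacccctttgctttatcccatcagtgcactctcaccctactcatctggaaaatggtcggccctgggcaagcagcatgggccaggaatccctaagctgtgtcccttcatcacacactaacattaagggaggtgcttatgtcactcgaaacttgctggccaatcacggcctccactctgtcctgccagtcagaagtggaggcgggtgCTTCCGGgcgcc
Zfp296: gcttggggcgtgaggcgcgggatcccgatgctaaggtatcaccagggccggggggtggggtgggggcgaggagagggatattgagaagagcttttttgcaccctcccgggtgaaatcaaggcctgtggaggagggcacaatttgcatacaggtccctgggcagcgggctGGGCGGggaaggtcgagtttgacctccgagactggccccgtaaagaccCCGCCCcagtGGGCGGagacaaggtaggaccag

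Levels spanned from 1.001 to 21.8 RPKM, with a median of 2.04. Means of 4 RPKM or more were reached by 33 genes, 50 lay from 2 to under 4 RPKM, and 80 under 2 RPKM. The 3 genes just inside the rule were Zfp51 (1.02 RPKM), Zfp276 (1.002 RPKM) and Zfp182 (1.001 RPKM). Just outside it were Zfp185 (0.988 RPKM), Zfp688 (0.952 RPKM) and Zfp821 (0.944 RPKM). Of the numbered rows 48.4% passed the level of 1 RPKM, while 32.1% of all rows did.

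The highest mean belonged to Zfp207 (21.8 RPKM), a microtubule and kinetochore protein of the spindle, and the next to Zfp57 (17.2 RPKM), a KRAB protein that keeps methylation at imprinted regions. Zfp936 (13.4 RPKM) and Zfp202 (10.6 RPKM) followed. Zfp706 (9.53 RPKM), Zfp292 (9.19 RPKM), Zfp961 (7.86 RPKM), Zfp568 (7.84 RPKM), Zfp91 (7.58 RPKM) and Zfp148 (6.40 RPKM) completed the first 10. The means of Zfp961 and Zfp568 differ by less than the spread between their replicates.

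Translated GENCODE coding sequences placed 72 members in a KRAB-type class (a KRAB box motif near the start of the protein), 74 in a class with at least 2 C2H2 fingers and no such motif, and 11 under 2 fingers. The other 6 had no coding sequence to class. A missing motif does not show that a protein lacks a KRAB box. The level rule took 46.8% of the 154 numbered KRAB-type genes and 49.7% of the 149 with fingers and no KRAB motif. Median levels were 1.84 RPKM in the KRAB-type class and 2.06 RPKM in the class without the motif, and the KRAB-type members had a median of 11.5 fingers against 9.

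**Figure D1:**
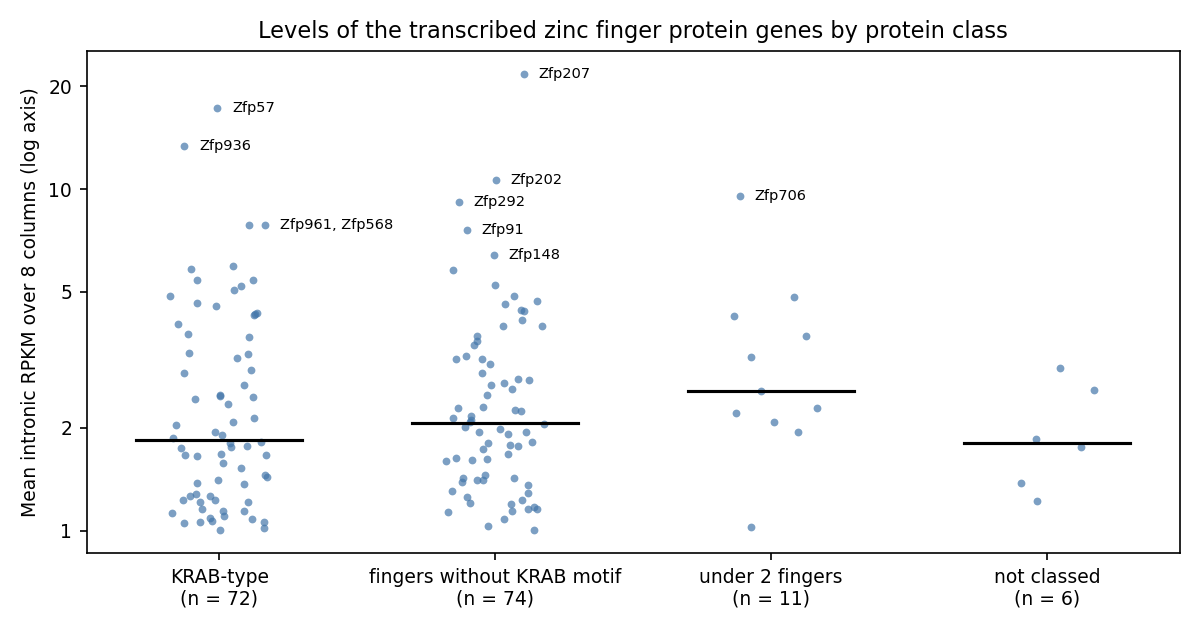
Mean intronic RPKM over the 8 columns (vertical log axis) for each of the 163 genes, by protein class (horizontal axis); points are genes, spread sideways at random, lines are class medians and the 10 highest genes are named. The classes overlap over nearly their whole range, and the highest gene of the KRAB-type class is Zfp57 at 17.2 RPKM.

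The members lay on 20 chromosomes, 34 of them on chromosome 7 and 24 on chromosome 17. Runs of neighbours were taken in the order of protein-coding genes (at most 5 protein-coding genes apart). Among runs with 4 or more members, the longest lay on chromosome 17 and held 20 numbered zinc finger genes. Of these, 12 were members, from Zfp160 to Zfp945, all of the KRAB-type class, with mean levels from 1.02 RPKM (Zfp51) to 3.76 RPKM (Zfp944). A run on chromosome 7 held 14 numbered genes, of which 5 were members: Zfp84, Zfp74, Zfp568, Zfp566 and Zfp146. Within that run Zfp568, the KRAB protein that silences a placental promoter of Igf2, reached 7.84 RPKM, while the other 4 lay between 1.12 and 2.78 RPKM. Neighbours within 1 cluster thus differed several-fold in level.

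The first comparison asks whether the edited lysine of Elongin A bears on transcription of these genes. With EloA_K754M, none of the 163 genes passed limma's test (adjusted p under 0.05 over 15161 genes), where 0.218% of all genes tested did. At an unadjusted p under 0.05 there were 23 members, 22 of them lower, against 15.4% of all genes. Both EloA_K754M libraries lay below both EloA_WT libraries for 55 members (33.7%), against 27.2% of all genes and 32.4% of genes with a mean of 1 RPKM or more. Both lay above for 9 members (5.52%), against 17% of all genes. The median log2 difference of the members was -0.11, beside -0.06 over all genes and -0.09 over genes with a mean of 1 RPKM or more, so the members' shift was close to that of other transcribed genes. Setting the libraries to equal medians moved the median of all genes by 0.13 (log2), and the members then divided into 38 lower and 25 higher without overlap (23.3% and 15.3%, against 17.6% and 27.8% of all genes). With the replicate number as a block 1 member fell, Zfp516.

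The smallest unadjusted p of a member in EloA_K754M was that of Zfp428. Its level was 5.32 and 5.70 RPKM in EloA_WT and 3.37 and 2.97 RPKM in EloA_K754M. The groups did not overlap, and the log2 difference was -0.78 (SE 0.13, adjusted p = 0.0914, limma). Zfp516, a protein of brown fat transcription, gave the largest difference of any member, with 2.89 and 1.91 RPKM in EloA_WT and 1.36 and 0.851 RPKM in EloA_K754M (log2 difference -1.05, SE 0.30, adjusted p = 0.197, limma). Zfp958 stood at 2.27 and 2.24 RPKM in EloA_WT and 1.14 and 1.45 RPKM in EloA_K754M. Zfp652 (1.64 and 1.41 against 0.999 and 0.922 RPKM), Zfp623 (1.30 and 1.45 against 0.933 and 0.911 RPKM), Zfp62 (4.22 and 3.47 against 2.61 and 2.66 RPKM), Zfp750 (4.55 and 3.77 against 3.15 and 2.51 RPKM) and Zfp141 (2.52 and 2.69 against 1.97 and 2.02 RPKM) also lay lower without overlap, and none of them passed the test. Zfp652, Zfp62 and Zfp750 lie on chromosome 11, whose values are given below. Zfp960 and Zfp867, the other 2 of the 10 smallest p-values, are described with EloA_K754R. The reverse direction held 1 member at an unadjusted p under 0.05, Zfp532, with 4.14 and 4.97 RPKM in EloA_WT and 5.89 and 5.78 RPKM in EloA_K754M.

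EloA_K754R stood further from EloA_WT. Of the 163 genes, 1 passed the test, and it fell, where 3.48% of all genes passed: Zfp960, which was 3.95 and 3.82 RPKM in EloA_WT, 2.98 and 2.85 RPKM in EloA_K754M and 1.32 and 1.58 RPKM in EloA_K754R. The 3 groups did not overlap. The fall of Zfp960 was by 1.36 on the log2 scale (SE 0.13), a 2.57-fold difference (adjusted p = 0.0180, limma). The pooled columns stood at 2.40 RPKM in CJ7_WT and 1.78 RPKM in Eed_null, so both EloA_K754R libraries lay below CJ7_WT as well. Zfp960 lies on chromosome 17, has no entry in the promoter table, and its protein was not classed.

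At an unadjusted p under 0.05 there were 54 members in EloA_K754R (33.1%), all of them lower, against 25.1% of all genes. Both EloA_K754R libraries lay below both EloA_WT libraries for 86 members (52.8%), against 38.8% of all genes and 43.5% of genes with a mean of 1 RPKM or more. Both lay above for 14 members (8.59%), against 18% of all genes. In 80 of the 86 lower members, pooled CJ7_WT also lay below both EloA_WT libraries, as it did in 126 of all 163. Both EloA_K754R libraries lay below CJ7_WT in 26 of the 86 and above it in 44. For these counts the share of all genes is not given here, and the part of EloA_WT in them was not tested. The median log2 difference of the members was -0.30, with quartiles of -0.49 and -0.07, beside -0.14 over all genes and -0.15 over genes with a mean of 1 RPKM or more. Thus 132 of the 163 had a negative difference (81.0%), beside 66.9% of genes with a mean of 1 RPKM or more. Setting all libraries to equal medians moved the median of all genes by 0.19 (log2). The members' median was then -0.10, beside 0.05 both over all genes and over genes with a mean of 1 RPKM or more, and 50 members lay lower and 27 higher without overlap (30.7% and 16.6%, against 23.8% and 32.1% of all genes). When the same libraries were fitted with limma-voom on recovered reads, 11 members fell in place of 1, and with the replicate number as a block 16 did. For both of these fits, in this and the other comparisons, the share of all genes passing is not given here. Their counts are therefore no result about the members. Leaving out any 1 of the 6 libraries ended the call of Zfp960, whose log2 difference then ran from -1.48 to -1.24.

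The 11 included Zfp960 and 7 of the 9 other members with the smallest p. Among these 9, Zfp867, a KRAB-type protein on chromosome 11, was 1.65 and 1.68 RPKM in EloA_WT, 1.23 and 1.25 RPKM in EloA_K754M and 0.910 and 1.07 RPKM in EloA_K754R (log2 difference of the last from EloA_WT -0.70, SE 0.13, adjusted p = 0.0519, limma). The 3 groups of Zfp867 followed the order seen for Zfp960. Zfp600, a KRAB-type protein on chromosome 4, was 7.16 and 8.36 RPKM in EloA_WT, 7.98 and 8.64 RPKM in EloA_K754M and 3.26 and 4.83 RPKM in EloA_K754R (log2 difference -0.94, SE 0.21, adjusted p = 0.0671, limma). Zfp961, on chromosome 8, was 8.72 and 10.4 RPKM in EloA_WT, 9.83 and 10.7 RPKM in EloA_K754M and 4.28 and 6.08 RPKM in EloA_K754R (log2 difference -0.88, SE 0.20, adjusted p = 0.0686, limma). In both of these genes EloA_K754M lay in the range of EloA_WT or above it, and EloA_K754R alone was low among the 6 libraries. The values of chromosomes 4 and 8 as a whole are given below.

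Zfp428 was 3.24 and 3.65 RPKM in EloA_K754R, as low as in EloA_K754M (log2 difference -0.67, SE 0.13, adjusted p = 0.0546, limma). Zfp110, which binds the neurotrophin receptor p75, stood at 6.53 and 6.08 RPKM in EloA_WT and 3.41 and 4.22 RPKM in EloA_K754R. Zfp605 (2.18 and 1.82 against 1.30 and 1.15 RPKM) and Zfp62 (4.22 and 3.47 against 2.21 and 2.60 RPKM) were low without overlap too. Zfp672, on chromosome 11, did not pass either, at 2.03 and 1.62 against 1.04 and 0.707 RPKM. Zfp296, a partner of Klf4 in pluripotent cells, was 1.18 and 1.4996 RPKM in EloA_WT and 0.569 and 0.625 RPKM in EloA_K754R, on 17 and 25 reads.

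**Figure D2:**
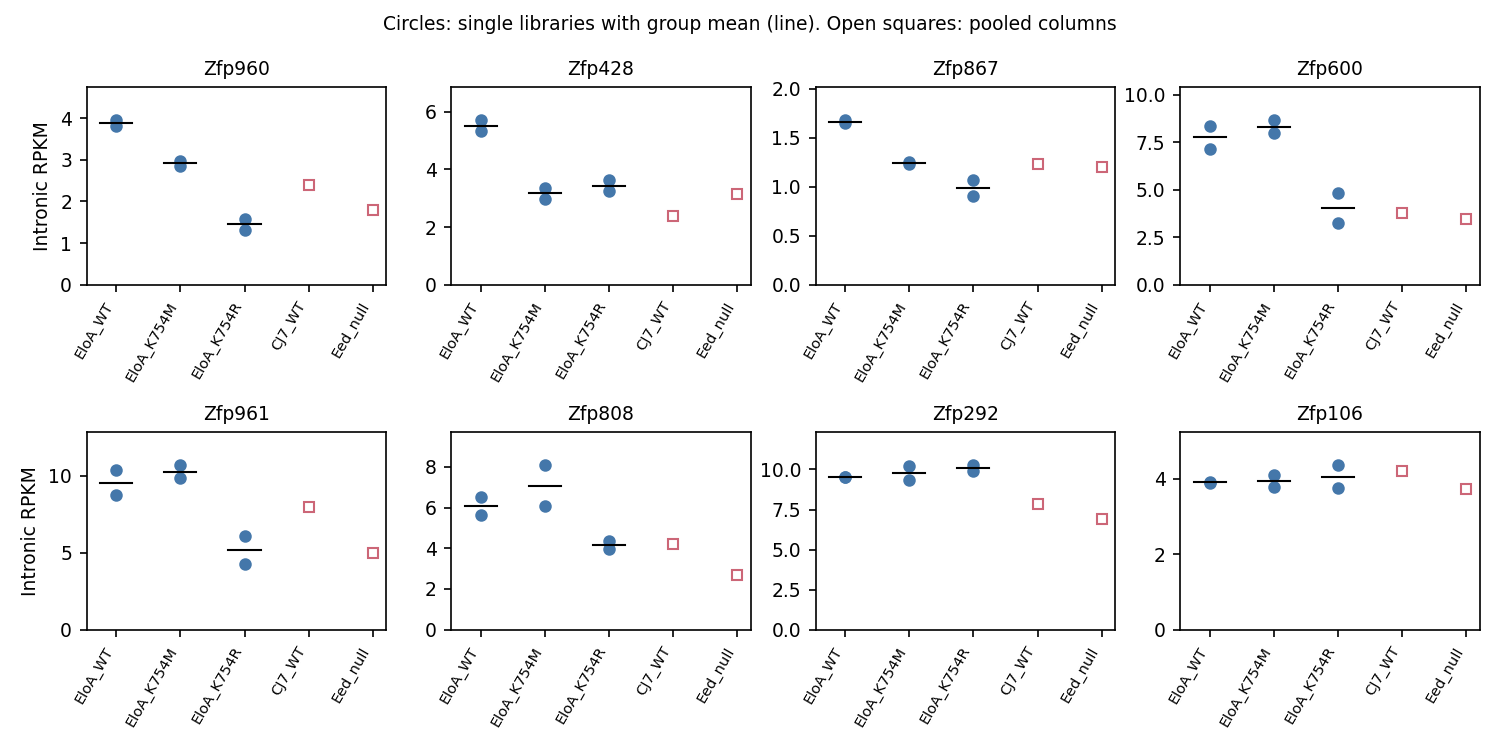
Intronic RPKM (vertical axes, from 0) of 8 members in each group (horizontal axes): circles are the 2 libraries of a group with their mean as a line, open squares are the pooled columns of CJ7_WT and Eed_null. Zfp960 is lowest in EloA_K754R (1.32 and 1.58 RPKM), Zfp428 is low in both mutants, Zfp600, Zfp961 and Zfp808 are low in EloA_K754R only among the 3 Elongin A groups, and Zfp292 and Zfp106 run from 9.34 to 10.3 and from 3.75 to 4.35 RPKM over the 6 libraries.

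Taking the mean of both mutants against EloA_WT, 2 members fell where 1.58% of all genes passed. They were Zfp960 (fell by 0.88 on the log2 scale, SE 0.11, adjusted p = 0.0378, limma) and Zfp428 (fell by 0.72, SE 0.11, adjusted p = 0.0494, limma), and both genes were lower in 4 of 4 mutant libraries than in either EloA_WT library. At an unadjusted p under 0.05 there were 35 members, all lower (21.5%), against 21% of all genes. With the replicate number as a block 7 members fell. Neither gene passed with equal library medians, with quantile normalization, with no level filter, without chromosome 11 or without any 1 library. Zfp512 (1.85 and 1.82 RPKM in EloA_WT, 1.25 to 1.53 RPKM in the 4 mutant libraries) and Zfp445, a KRAB protein of imprint maintenance (7.58 and 8.31 RPKM in EloA_WT, 5.08 to 6.27 RPKM in the mutants), were among the 10 smallest p-values and did not pass.

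The mutants were also compared with each other, since this does not involve EloA_WT. No member passed limma's test, where 0.29% of all genes did, and 26 members had an unadjusted p under 0.05, 21 of them higher in EloA_K754M, against 18.5% of all genes. Both EloA_K754R libraries lay below both EloA_K754M libraries for 64 members (39.3%), against 31.9% of all genes and 30.0% of genes with a mean of 1 RPKM or more. The reverse held for 20 members (12.3%), against 18.6% of all genes. The members' median difference, EloA_K754M minus EloA_K754R, was 0.14 (log2), beside 0.09 over all genes and 0.05 over genes with a mean of 1 RPKM or more. With the replicate number as a block 3 members were higher in EloA_K754M, namely Zfp960, Zfp600 and Zfp961, and with equal library medians 41 members lay higher and 27 lower without overlap (25.2% and 16.6%, against 25% and 24.4% of all genes). The median was 0.06 without EloA_K754R replicate 1 and 0.23 without replicate 2.

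Zfp960 came nearest to the threshold (log2 difference 0.96, SE 0.13, adjusted p = 0.0573, limma), followed by Zfp600 (1.05, SE 0.21, adjusted p = 0.101) and Zfp961 (0.99, SE 0.20, adjusted p = 0.102). These 3 and Zfp808 passed with limma-voom on recovered reads. Zfp808, a KRAB protein with 22 fingers, was 8.07 and 6.06 RPKM in EloA_K754M and 3.96 and 4.37 RPKM in EloA_K754R, with EloA_WT at 6.53 and 5.61 RPKM. Zfp532 (5.89 and 5.78 against 3.90 and 4.37 RPKM), Zfp788 (2.42 and 1.93 against 1.54 and 1.47 RPKM), Zfp605 (1.71 and 1.81 against 1.30 and 1.15 RPKM), Zfp870 (2.47 and 2.52 against 1.03 and 1.78 RPKM) and Zfp125 (3.10 and 4.86 against 1.84 and 2.10 RPKM) were higher in EloA_K754M without overlap. Zfp593 (2.50 and 4.27 against 1.42 and 1.91 RPKM) rested on 5 to 14 reads in these libraries.

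By protein class the medians of the EloA_K754R difference were -0.32 for the 72 KRAB-type members, -0.22 for the 74 with fingers and no KRAB motif, and -0.06 for the 11 under 2 fingers. Values were negative in 63 of 72, 57 of 74 and 7 of 11. Between the mutants (EloA_K754M minus EloA_K754R) the class medians were 0.21, 0.08 and -0.06. Class differences were not tested. Numbered zinc finger genes under the level rule had a median EloA_K754R difference of -0.35 over 149 genes. With a mean of 1 RPKM or more, the 21 Zbtb genes had -0.39 and the 10 Zscan and Zkscan genes -0.51. Called lower were 1 of the 149, 2 of the 21 and 2 of the 10, where 3.48% of all genes passed in either direction. Lower values in EloA_K754R were seen in other zinc finger families and at lower levels too. Over the 12 members of the chromosome 17 run the EloA_K754R differences ran from -0.49 (Zfp820) to 0.28 (Zfp229). Their median was -0.24, and 9 of the 12 were negative. In 4 of the 12 EloA_K754R lay below EloA_WT without overlap, where 38.8% of all genes did. Among genes with a mean of 1 RPKM or more 43.5% did. None of the 12 was called, and a direction shared within this cluster was not tested.

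Chromosome 11 stood apart as a whole. Its 1322 genes had a median log2 difference from EloA_WT of -0.46 in EloA_K754M and -0.56 in EloA_K754R, while the other genes had -0.03 and -0.11. All 7 members on chromosome 11 were negative in both mutants, with medians of -0.52 and -0.54, and in pooled CJ7_WT (median -0.64). They are Zfp207, Zfp62, Zfp652, Zfp672, Zfp692, Zfp750 and Zfp867. Zfp207 was 28.5 and 30.2 RPKM in EloA_WT, 22.1 and 23.2 RPKM in EloA_K754M, 19.9 and 20.6 RPKM in EloA_K754R, 15.9 RPKM in CJ7_WT and 13.9 RPKM in Eed_null, so every other value lay below EloA_WT. The number of chromosome copies was not measured, and its part in these values was not tested. Without chromosome 11 the medians of the other 156 members were -0.10 in EloA_K754M and -0.28 in EloA_K754R, beside -0.06 and -0.11 over other genes with a mean of 1 RPKM or more. Chromosomes 4, 14 and X also stood apart between the mutants, with median EloA_K754M minus EloA_K754R differences over all their genes of 0.30, -0.30 and -0.24. In EloA_K754R against EloA_WT the medians of these chromosomes were -0.30, 0.25 and 0.26, and that of the 801 genes on chromosome 8 was -0.26. Chromosome 4 holds Zfp600 and 4 other members, among them Zfp593. Chromosome 8 holds 13 members, among them Zfp961. The part of these chromosome-wide values in those of Zfp600 and Zfp961 was not tested.

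**Figure D3:**
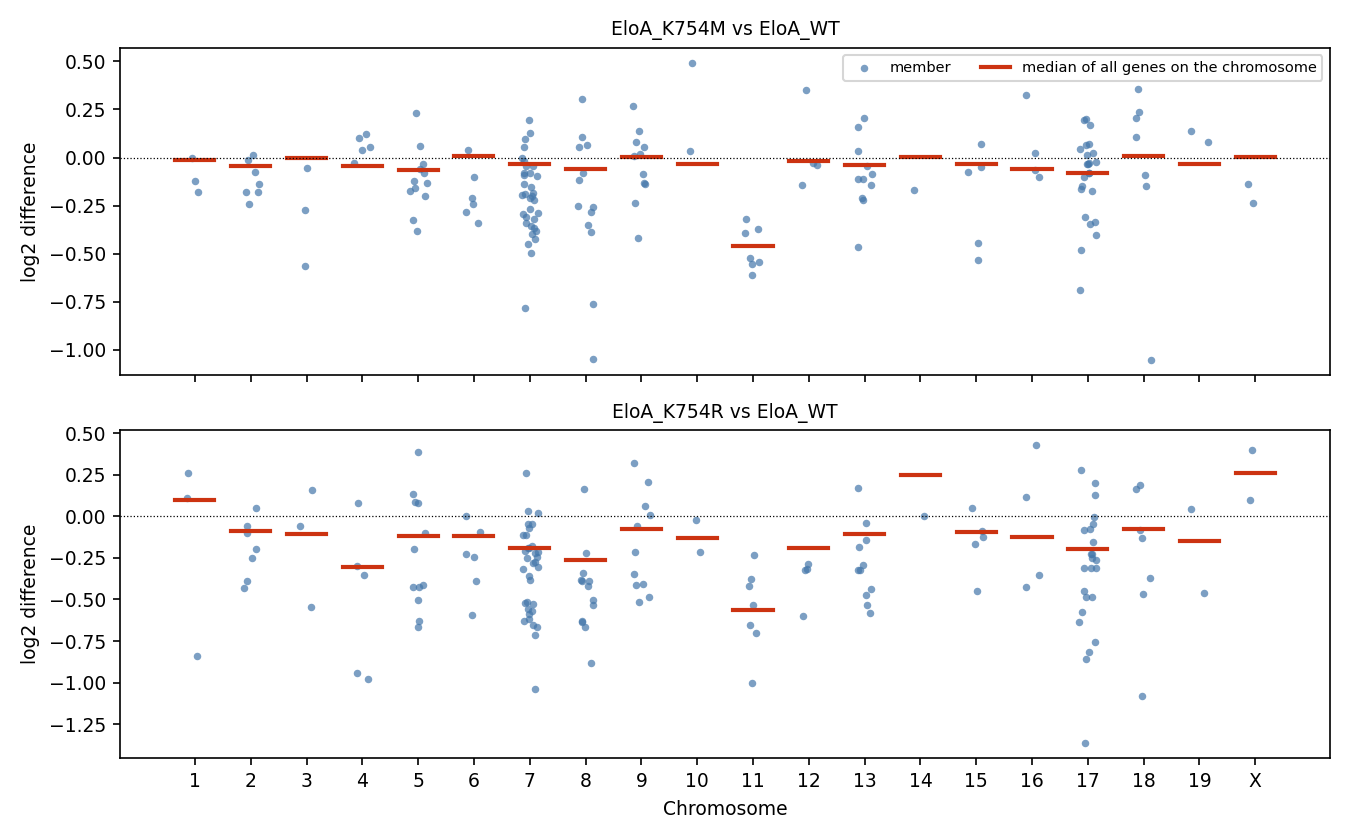
Log2 difference from EloA_WT (vertical axes) of each member by chromosome (horizontal axis), for EloA_K754M above and EloA_K754R below; points are members and red lines are medians of all tested genes on that chromosome. On chromosome 11 the line lies at -0.46 and -0.56 and all 7 members are negative, while the lowest point below is Zfp960 on chromosome 17.

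Members with a known role were looked at as a group chosen for what the proteins do. Of the 23, none passed the test in either mutant against EloA_WT, and their median differences were -0.04 in EloA_K754M and -0.11 in EloA_K754R. Zfp57 was 23.0 and 23.0 RPKM in EloA_WT, 23.5 and 17.9 RPKM in EloA_K754M, 13.3 and 16.4 RPKM in EloA_K754R, 10.8 RPKM in CJ7_WT and 9.86 RPKM in Eed_null. Its EloA_K754R libraries lay below EloA_WT, and the pooled columns lay lower still. Zfp809, which recognises a retroviral primer binding site, was 5.07 and 5.44 RPKM in EloA_WT, 4.75 and 5.95 RPKM in EloA_K754M and 3.79 and 4.05 RPKM in EloA_K754R. Zfp568 was 5.99 and 8.37 RPKM in EloA_WT and 5.61 and 6.95 RPKM in EloA_K754R, where the groups overlapped, and 11.3 RPKM in pooled CJ7_WT. Zfp462, a large protein with 33 fingers, was 4.24 and 5.15 RPKM in EloA_WT and 3.32 and 3.97 RPKM in EloA_K754R.

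No other gene of this group passed the test, and their ranges were these. Zfp106, an RNA-binding protein, ran from 3.75 to 4.35 RPKM over the 6 libraries. Zfp143, an activator at many promoters, ran from 1.74 to 2.21 RPKM, and Zfp148 from 5.56 to 6.52 RPKM. Zfp292 was 9.52 and 9.53 RPKM in EloA_WT and 10.3 and 9.90 RPKM in EloA_K754R, Zfp384 3.72 to 4.87 RPKM over the 6 libraries, and Zfp335 1.45 to 1.90 RPKM. Zfp326, part of a complex that acts on polymerase II elongation and splicing, was 2.06 and 2.56 RPKM in EloA_WT and 2.75 and 3.34 RPKM in EloA_K754R. Zfp451, a SUMO ligase, was 3.58 and 3.51 RPKM in EloA_WT and 4.03 and 4.49 RPKM in EloA_K754R. These 2 lay higher in EloA_K754R without overlap and did not pass the test. Zfp644, a partner of the G9a histone methyltransferase, ran from 2.65 to 3.51 RPKM and Zfp592 from 1.60 to 2.10 RPKM. Zfp91 ran from 7.94 to 9.10 RPKM, Zfp706 from 8.06 to 11.1 RPKM, Zfp346, which binds double-stranded RNA, from 1.63 to 2.41 RPKM and Zfp217 from 3.06 to 4.18 RPKM. Zfp281, a transcription factor of primed pluripotency, had only 5 to 11 intronic reads in a library (1.42 to 3.36 RPKM), and its values have that precision.

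The genes of KRAB protein partners were looked at in the same way. Of 40 tested cofactor genes, 1 fell in EloA_K754R and none in EloA_K754M, where 3.48% and 0.218% of all genes passed. The median EloA_K754R difference was -0.09. The gene was Cbx1, a heterochromatin protein gene on chromosome 11 (8.70 and 9.22 RPKM in EloA_WT, 4.82 and 5.10 RPKM in EloA_K754R, adjusted p = 0.0331, limma). Cbx1 was low in EloA_K754M too, at 5.43 and 5.51 RPKM (log2 difference -0.70, adjusted p = 0.0881, limma). It also passed in the mean of both mutants (adjusted p = 0.0378, limma). Trim28 was 36.9 and 39.3 RPKM in EloA_WT, 34.1 and 45.9 RPKM in EloA_K754M and 30.9 and 32.2 RPKM in EloA_K754R, and did not pass (log2 difference of the last -0.27, adjusted p = 0.451). Setdb1 was 5.21 and 6.46 RPKM in EloA_WT and 6.05 and 6.26 RPKM in EloA_K754R.

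**Figure D4:**
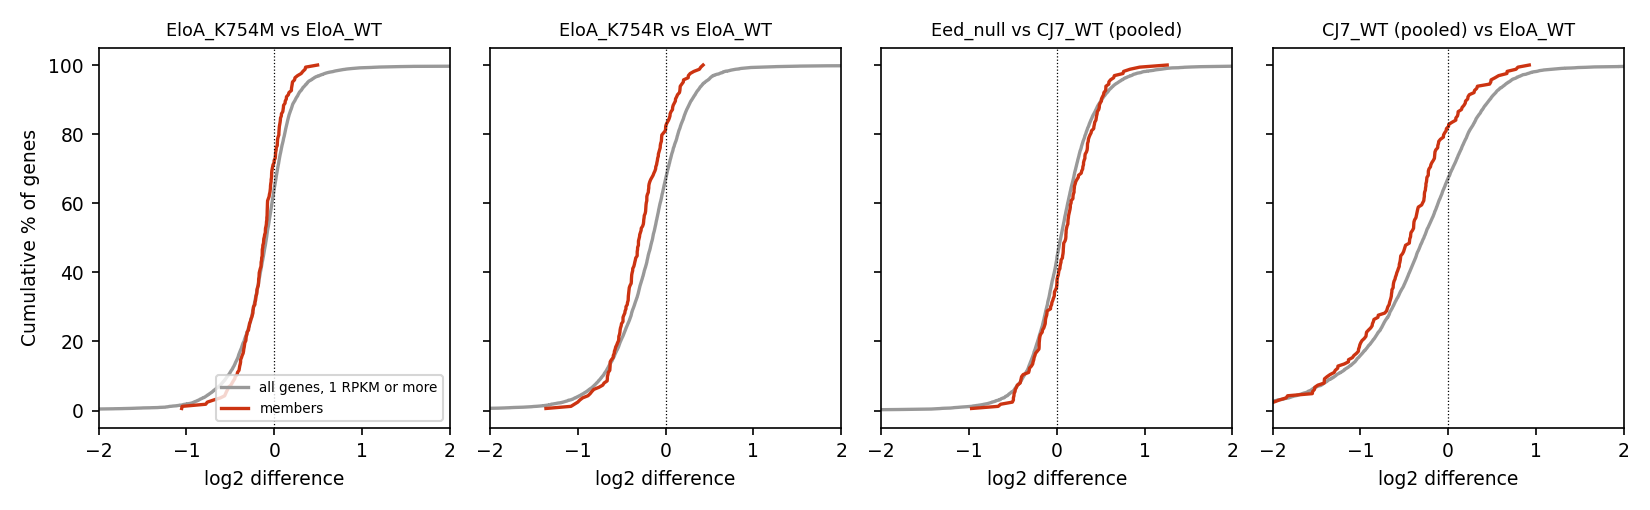
Cumulative share of genes (vertical axis, percent) by log2 difference (horizontal axes, shown from -2 to 2) for the 163 members (red) and for all genes with a mean of 1 RPKM or more (grey), in 4 comparisons. Over its middle part the red curve lies to the left of the grey one in EloA_K754R (medians -0.30 and -0.15) and in CJ7_WT against EloA_WT (-0.43 and -0.28), and near it in the other 2 panels.

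The loss of Eed can be compared only between pooled columns, 1 a group, so it has no replicate check and no test. If the line entries hold, it also cannot be told apart from the line, since Eed_null and CJ7_WT then differ in both. Eed itself read 10.0 RPKM in CJ7_WT and 7.97 RPKM in Eed_null, so it was still transcribed there. Tceb3 read 1.51 and 1.89 RPKM in these columns. Intronic values do not test the loss of a protein. Differences past 1.5-fold are counted. Eed_null was higher than CJ7_WT past 1.5-fold in 10 members (6.13%) and lower in 3 (1.84%), where 16% of all genes were higher and 5.37% lower. Among genes with a mean of 1 RPKM or more, which are read more precisely, the shares were 7.60% and 4.03%. The members' median log2 ratio was 0.10, beside 0.11 over all genes and 0.05 over genes with a mean of 1 RPKM or more. The members thus stood near other transcribed genes in this comparison. The direction depended on the scaling: with equal column medians 5 members were higher and 12 lower (3.07% and 7.36%), where 10.8% of all genes were higher and 9.14% lower. Among genes with a mean of 1 RPKM or more 4.32% were then higher and 7.93% lower, so their balance turned the same way. With pseudocounts of 0.5 and 1 in place of 0.1, 4 and 2 members were past 1.5-fold.

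Zfp296 had the largest ratio, 1.02 RPKM in CJ7_WT and 2.57 RPKM in Eed_null on 90 and 190 reads, a 2.53-fold difference (exact 95% interval 1.96 to 3.28, which covers counting error only). In the 6 other libraries Zfp296 ran from 0.569 to 1.4996 RPKM, so Eed_null lay above all of them. Zfp386 (0.905 and 1.60 RPKM), Zfp553 (1.43 and 2.63 RPKM), Zfp770 (0.907 and 1.60 RPKM on 53 and 78 reads), Zfp748 (1.11 and 1.79 RPKM), Zfp105 (1.25 and 1.96 RPKM) and Zfp747 (0.451 and 0.959 RPKM on 18 and 32 reads) were higher in Eed_null as well, as were Zfp593 and Zfp687. For Zfp386, Zfp553, Zfp770, Zfp105 and Zfp747 the CJ7_WT value lay below all 6 Elongin A libraries. Zfp516, 1.63 RPKM in CJ7_WT and 2.62 RPKM in Eed_null, had deep coverage at 13538 and 18214 reads (ratio 1.61, interval 1.57 to 1.65).

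In the other direction Zfp961 was 7.995 RPKM in CJ7_WT and 4.99 RPKM in Eed_null, a ratio of 0.624 (interval 0.612 to 0.637). Zfp808 was 4.23 and 2.68 RPKM, a ratio of 0.633 (interval 0.617 to 0.650). Both genes were also low in EloA_K754R, where Zfp961 stood at 4.28 and 6.08 RPKM and Zfp808 at 3.96 and 4.37 RPKM. Zfp365 (1.01 and 0.678 RPKM), Zfp182 (1.40 and 0.962 RPKM), Zfp59 (3.88 and 2.72 RPKM), Zfp827 (2.58 and 1.81 RPKM) and Zfp626 (1.89 and 1.32 RPKM) lay lower by less than 1.5-fold. Zfp281 was counted as lower on 1 read in CJ7_WT and 0 in Eed_null, so no fold is given.

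**Figure D5:**
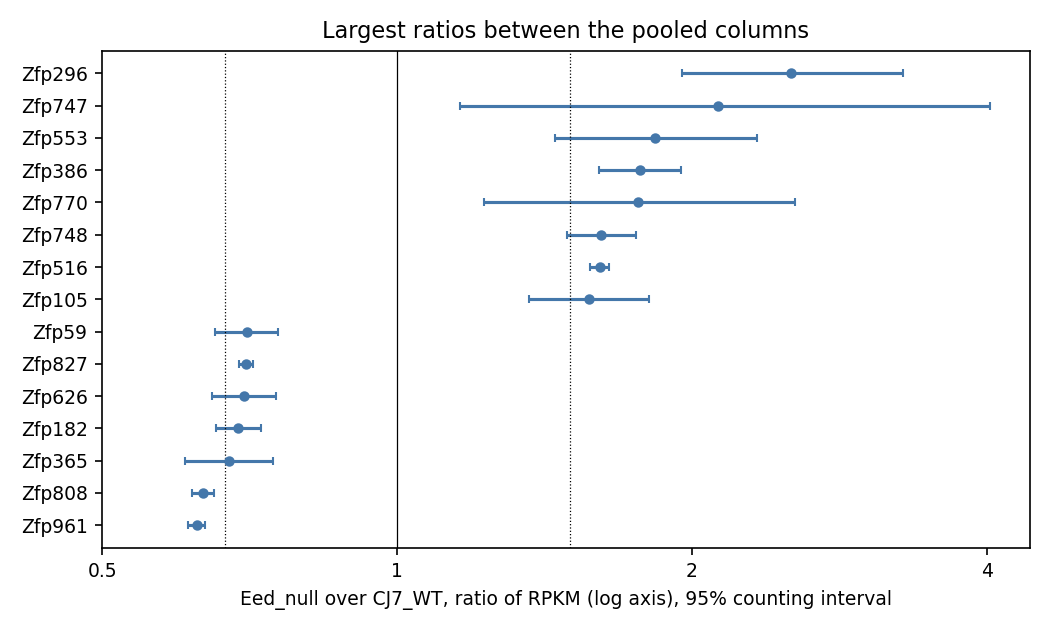
Ratio of RPKM in pooled Eed_null to pooled CJ7_WT (horizontal log axis) for the 15 named members with the largest ratios each way, Zfp281 left out; points are ratios, bars are exact 95% intervals for counting error, and dotted lines mark 1.5-fold. Zfp296 is highest at 2.53, with Zfp747 next on 18 and 32 reads, and Zfp961 and Zfp808 are lowest at 0.624 and 0.633.

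A last description sets the wild-type line CJ7_WT beside EloA_WT, since both carry unedited Elongin A. CJ7_WT was lower past 1.5-fold in 65 members (39.9%) and higher in 5 (3.07%), where 28.6% of all genes were lower and 9.83% higher. Among genes with a mean of 1 RPKM or more 32.4% were lower. The members' median log2 ratio was -0.43, beside -0.20 over all genes and -0.28 over genes with a mean of 1 RPKM or more. The median distance between these wild-type groups was larger than that of either mutant from EloA_WT; this difference was not tested. With equal column medians 43 members were lower and 10 higher (26.4% and 6.13%, against 19.1% and 18.2% of all genes).

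Zfp281 and Zfp593 had the lowest ratios on 1 and 6 reads in CJ7_WT. The next were those of Zfp639 (5.40 and 4.68 RPKM in EloA_WT, 1.11 RPKM in CJ7_WT), Zfp959 (2.31 and 2.16 against 0.488 RPKM), Zfp459 (6.63 and 5.16 against 1.47 RPKM), Zfp110 (6.53 and 6.08 against 1.68 RPKM) and Zfp951 (6.83 and 5.96 against 1.72 RPKM). Eed_null lay above CJ7_WT and below both EloA_WT libraries in each of them. It stood at 1.69 RPKM for Zfp639, 0.626 RPKM for Zfp959, 2.17 RPKM for Zfp459, 2.29 RPKM for Zfp110 and 2.41 RPKM for Zfp951. The 5 members higher in CJ7_WT were Zfp609 (1.72 and 1.53 against 3.16 RPKM), Zfp710 (3.71 and 3.94 against 6.71 RPKM), Zfp827 (1.83 and 1.18 against 2.58 RPKM), Zfp568 and Zfp820 (1.24 and 1.54 against 2.26 RPKM). These genes were named after their values were seen. In bulk RNA, fewer cells of a type and less RNA per cell cannot be told apart, and the labels do not say that the 2 samples of a group came from separate cultures, so the p-values above measure only the spread between these samples.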

How the data were processed

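The authors deposited one table of intronic RPKM per gene, aligned with BWA to mm9 per the submitters' processing notes (BWA's version: not given in the sources used here). It has 1 column for each of the 6 Elongin A libraries and 1 pooled column each for CJ7_WT and Eed_null. Whole reads could be recovered from the deposited RPKM for 20816 of 20817 rows with 6 or more columns above 0, within 0.01 read; RPKM was kept as the unit.

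log2(RPKM + 0.1) was fitted for the 15161 genes whose mean reached 0.1 RPKM with limma 3.58.1 in R 4.3.3, 3 groups of 2 in 1 fit, with a trended prior, two-sided tests and Benjamini-Hochberg adjustment at 0.05. Fold changes are on this scale, which understates the change of low genes. The fit was tested on simulated data. Pooled columns were compared as ratios, with exact 95% binomial intervals of recovered reads. Alternatives were other pseudocounts, filters, scalings, a replicate block, limma-voom on recovered reads, and leaving out chromosome 11 or each library.

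Members and lists were chosen with earlier results of these data known. The genes named were the 10 highest, the called members of each comparison filled up to 10 by smallest p, the 8 largest ratios each way for Eed_null, and members with a known role. Protein classes came from GENCODE vM21 coding sequences in place of a protein table, and the KRAB motif was widened after reading sequences, not values. Zfp664 stands on 2 rows and was counted once. Chromosomes and neighbours come from GRCm38, so no mm9 coordinates are given.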

Additional observations from a re-analysis of the deposited data

How the results depend on the processing

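With 2 libraries a group, calls were few and moved with the method. No direction reversed among the genes named for the smallest p or the largest ratio. Of the 26 genes named for level or known role, equal library medians changed the sign of 5 in EloA_K754M (Zfp143, Zfp326, Zfp451, Zfp706, Zfp936) and 5 in EloA_K754R (Zfp143, Zfp335, Zfp346, Zfp384, Zfp568), none of them called. In EloA_K754R 1 member was called; a mean of at least 0.5 RPKM gave 3, limma-voom 11, and leaving out each library 0 to 0. In the mean of both mutants 2 were called; no filter, equal library medians, quantile normalization and the fit without chromosome 11 gave 0, limma-voom 5, and leaving out each library 0 to 0. In EloA_K754M 0 were called and limma-voom gave 1 (Zfp652); between the mutants 0 were called and limma-voom gave 4.

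With the replicate number as a block the counts were 1 in EloA_K754M, 16 in EloA_K754R, 7 for both mutants and 3 between the mutants, and 14 of 40 named results passed that had not. The share of all genes passing with this block, or with limma-voom, is not given here, so these counts are no result about the members. The labels do not say what the number marks. Deviations of same-numbered libraries correlated weakly in all 3 pairs of groups (0.152 to 0.197), and with 2 libraries a group whether the number pairs them is not settled here.

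The member median in EloA_K754R (-0.30) was -0.18 and -0.23 with pseudocounts of 1 and 0.5, -0.10 with equal library medians, -0.11 with quantile normalization, -0.25 for members with a mean of at least 2 RPKM, and -0.38 to -0.20 leaving out each library. With equal medians and with quantile normalization it was 0.014 and 0.0089 in EloA_K754M, -0.039 and -0.049 for both mutants, and 0.078 and 0.086 between the mutants. For both mutants a pseudocount of 1 gave -0.14. Leaving out each library gave 0.058 to 0.23 between the mutants. For Eed_null against CJ7_WT the 13 members past 1.5-fold became 2 and 4 with pseudocounts of 1 and 0.5 and 6 at a mean of at least 2 RPKM; with equal column medians they were 17, and the balance turned from 10 higher and 3 lower to 5 higher and 12 lower. The balance over genes with a mean of 1 RPKM or more turned the same way. The members' median of 0.10 became -0.054 with equal column medians and 0.048 at 2 RPKM. For CJ7_WT against EloA_WT, under alternatives chosen after seeing the data, the median of -0.43 became -0.36 and -0.29 with pseudocounts of 0.5 and 1 and -0.20 with equal column medians. A rule of at least 2 RPKM took 83 members in place of 163. Depth limits the 8 members with under 20 reads in some library.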
